A study of Ovis aries with 95 samples.

Results

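The expression of 5 genes of lipid metabolism was followed in the developing sheep brain: ACLY, ACSS2, ACACA, SQLE and ABHD5. They were taken from the array by name, as every gene probe whose gene name, transcript or description was one of these symbols. This gave 8 probes for the 5 genes, out of 15008 different gene probes. Averaged by gene name, or by accession where no symbol was found, these gave 14347 entries, called genes below. For 13352 probes only an accession was found, so several entries may belong to 1 gene. The RNA came from 4 regions (hypothalamus, hippocampus, brainstem and cortex) of untreated animals. Fetuses were sampled at gestational ages of 80, 100, 120, 130 and 145 d, and lambs, called newborn, on day 1 after birth. The 100 d and 145 d groups each covered a few neighbouring days. There were 4 arrays for each region and age, and 3 for the hippocampus of 100 d fetuses, 95 in all, and the ewes were not in labor. Each age held 1 set of twins that the labels do not mark, so the p-values measure the spread between arrays of which some come from twins, and the regions of an age share their animals. Whole tissue was measured, so fewer cells of a type and less RNA per cell cannot be told apart.

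Brain lipids are made largely within the brain, and the sheep brain begins to lay down its lipid-rich myelin before birth. ACLY splits citrate into cytosolic acetyl-CoA and ACSS2 makes acetyl-CoA from acetate, and both feed fatty acid and sterol synthesis. ACACA, acetyl-CoA carboxylase, turns acetyl-CoA into malonyl-CoA, the rate-limiting step of fatty acid synthesis. SQLE, squalene epoxidase, opens the last stretch of the sterol pathway. ABHD5 does not belong to synthesis: it activates the lipase that breaks down the triglycerides of lipid droplets.

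The probes fix which part of each transcript was read, and 3 of them are shown whole because their letters tell what they read. Positions count from the first base of the transcript to which the array's annotation ties the probe. The ACLY probe starts at base 3246, and its capitals mark a stop codon that closes its only reading frame with no earlier stop. The 2 ACSS2 probes start at bases 668 and 698, and their capitals mark the 30 bases that both contain, so that they are not independent readings of the gene.
ACLY: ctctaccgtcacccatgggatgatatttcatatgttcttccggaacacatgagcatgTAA
ACSS2 probe 1: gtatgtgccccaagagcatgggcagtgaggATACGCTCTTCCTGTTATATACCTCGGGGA
ACSS2 probe 2: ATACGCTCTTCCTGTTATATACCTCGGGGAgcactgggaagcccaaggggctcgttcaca

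The other probes are given by their first 30 bases. The 2 ACACA probes start at bases 9145 and 9147, share 58 of their 60 bases and read in effect 1 site. The 2 SQLE probes start at bases 1849 and 2034, which are 185 bases apart, so SQLE was the only one of the 5 genes read at separate sites. The ABHD5 probe starts at base 1223.
ACACA probe 1: actttaggtctttattggacaggactcttg
ACACA probe 2: tttaggtctttattggacaggactcttgtc
SQLE probe 1: cgcttctaaagtgggaattcttggaccaag
SQLE probe 2: tcttttgaattcagtatttgggatgagtca
ABHD5: ctttgcacatgttttctttatgaagctgct

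Levels are log2 intensities after normalization over all arrays, so a difference of 1 is a 2-fold difference in brightness, and the levels of different genes were not compared with each other. A gene with 2 probes has their mean. ACLY, SQLE and ABHD5 were well above background on all 95 arrays. The ACACA probes were so on 92 and 91 arrays and the ACSS2 probes on 87 and 92, and no member spot was saturated. ACACA and ACSS2 lay near the dim end, where an offset added during background correction shrinks differences. The lowest level marked well above background was 6.48 as the median over arrays.

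Some arrays stood apart in ways that touch the members. On brainstem newborn replicate 4, an area of 3269 gene spots was dim: its spots deviated from the other newborn brainstem arrays by a median of -0.94, against 0.37 outside it. One spot each of SQLE (probe 2, which deviated by -6.75) and ACSS2 (probe 2, by -0.47) lay in this area. The 8 hippocampal arrays of slide 4 were 1 of 100 d, 2 of 120 d, 2 of 130 d, 1 of 145 d and 2 newborn. On them, downstream probes were bright relative to upstream probes of the same transcript, by a median of 0.15 over 77 probe pairs, against -0.02 on the other 15 hippocampal arrays. Between 59.5% and 85.1% of gene spots were well above background in hippocampus and between 72% and 88.5% in the other regions. None of 10 neuronal markers had a named probe (0 of 10), so neurons were not checked by markers, and 5 of 8 astrocyte markers had one.

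**Figure D1:**
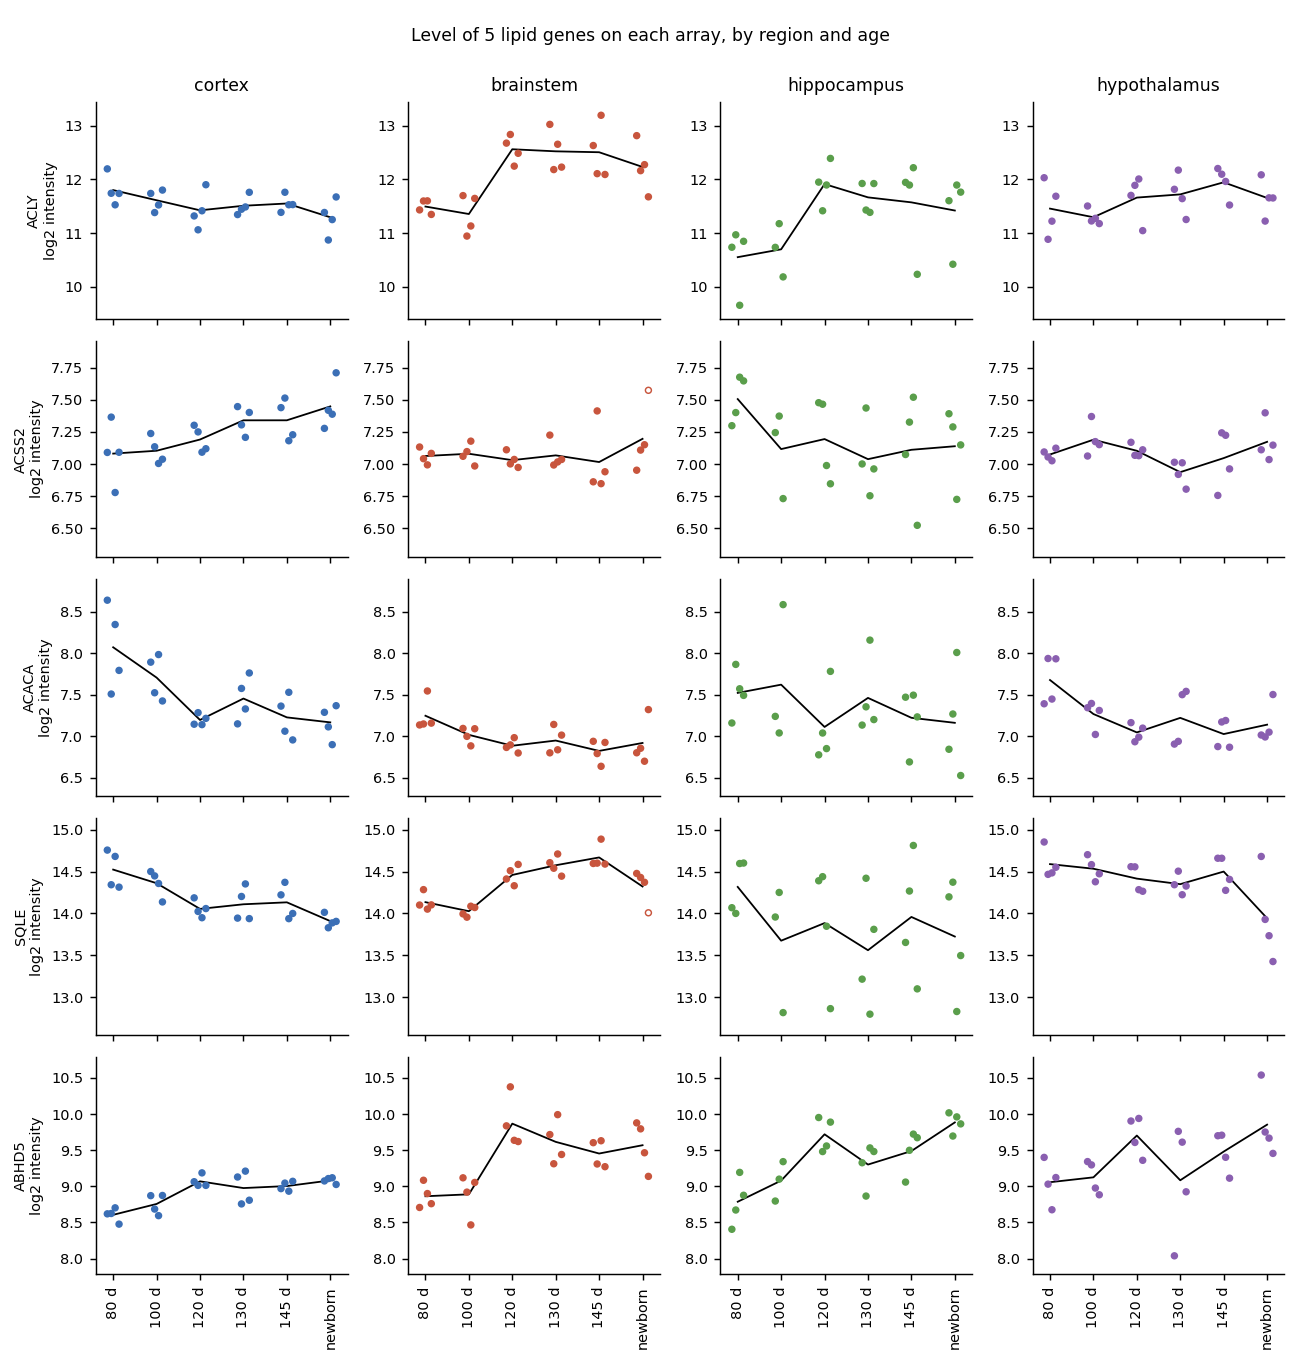
Level (log2 intensity, y axis) of ACLY, ACSS2, ACACA, SQLE and ABHD5 on each array against age (x axis), in 4 regions. Points are arrays, black lines join group means, and the open brainstem points are ACSS2 and SQLE values recomputed without the spot in the dim area. ACLY and ABHD5 stand higher from 120 d on in brainstem and hippocampus, ACACA lies highest at 80 d in cortex and hypothalamus, and SQLE goes down in cortex but up in brainstem.

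ACLY rose through gestation in brainstem and did not pass the test in the other regions. At 80 d the 4 brainstem arrays read 11.43, 11.60, 11.60 and 11.35, and at 145 d they read 12.63, 12.11, 13.19 and 12.09. The groups did not overlap, and the difference was 1.01 ± 0.26 (SE, adjusted p = 0.0035). In this comparison 17% of the 12779 genes tested in brainstem were higher at 145 d. The step lay between 100 d, at 11.70, 10.95, 11.13 and 11.65, and 120 d, at 12.67, 12.84, 12.25 and 12.49. Every array at 120 d stood above every array at 100 d, and the mean moved by 1.20, a value described here without a test. The change over the 6 ages passed the F test in brainstem (adjusted p = 0.00075), beside 40.6% of all genes there.

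In hippocampus the ACLY values had the same shape with a wider spread. The 80 d arrays read 10.74, 10.97, 9.66 and 10.85, and the 145 d arrays 11.94, 11.89, 12.22 and 10.23. Replicate 4, on slide 4, was the low one at 145 d and made the groups overlap. The difference was 1.02 ± 0.41 (SE) with an adjusted p of 0.20, against 2.12% of genes called higher in hippocampus. Without that array it was 1.47 with an adjusted p of 0.030, and without all 8 arrays of slide 4, a choice made after seeing the data, 1.47 with an adjusted p of 0.031. From 100 d to 120 d all hippocampal arrays moved up without overlap, by 1.21 on average, a step that was not tested. Cortex gave -0.25 ± 0.17 (SE, adjusted p = 0.28) and hypothalamus 0.49 ± 0.25 (SE, adjusted p = 0.23).

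The fetal change of ACLY differed between the regions (adjusted p = 0.027 for the test of the difference itself, passed by 15.7% of all genes). It ranged from -0.25 in cortex to 1.01 in brainstem and 1.02 in hippocampus. Without a slide term the adjusted p was 0.069, and it rose to 0.079, 0.074 and 0.055 when cortex 80 d replicate 1, cortex 145 d replicate 1 or brainstem 145 d replicate 3 was left out. ACLY was the only member called by this test. ACSS2 came next with an adjusted p of 0.056, which fell under 0.05 in 13 of 95 fits that each left out 1 array and under 4 of 11 alternative settings.

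ACSS2 changed little. In cortex it passed the F test over the ages (adjusted p = 0.040), where 45.7% of genes did. Its cortical arrays read 7.09, 7.37, 6.78 and 7.09 at 80 d, 7.44, 7.51, 7.18 and 7.23 at 145 d, and 7.28, 7.42, 7.39 and 7.71 in newborns. The ranges at 80 d and 145 d overlapped, and the difference of 0.26 ± 0.11 (SE) had an adjusted p of 0.068. The call over the ages was lost in 14 of the 24 fits that left out 1 cortical array, with adjusted p up to 0.083. Taken alone, probe 2 passed the F test in cortex (adjusted p = 0.026) and probe 1 did not (adjusted p = 0.11). With the scanner's processed signal, which carries no added offset, the cortical difference was 1.02 with an adjusted p of 0.0066. The other regions gave -0.05, -0.39 and -0.03 in brainstem, hippocampus and hypothalamus, with adjusted p of 0.75, 0.42 and 0.91. In hippocampus 3 of the 23 arrays had no ACSS2 probe well above background.

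ACACA fell in 3 of the 4 regions. In cortex it read 8.64, 7.51, 8.35 and 7.79 at 80 d and 7.36, 7.06, 7.53 and 6.96 at 145 d. The 145 d arrays were low, but the highest of them reached the lowest of 80 d, and the difference was -0.84 ± 0.20 (SE, adjusted p = 0.0015), in a region where 22.7% of genes were lower at 145 d. In hypothalamus the arrays read 7.39, 7.94, 7.45 and 7.93 at 80 d and 6.88, 7.17, 7.19 and 6.87 at 145 d. These groups did not overlap, and the change was -0.65 ± 0.17 (SE, adjusted p = 0.011), where 8.51% of genes were lower. Taken alone, probe 1 gave -0.79 (adjusted p = 0.0073) and probe 2 gave -0.51 (adjusted p = 0.051).

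In brainstem the decline of ACACA was smaller. The 80 d arrays read 7.14, 7.15, 7.55 and 7.16 and the 145 d arrays 6.94, 6.79, 6.64 and 6.93. There was no overlap, and the change was -0.42 ± 0.12 (SE, adjusted p = 0.0095), beside 20.5% of genes lower at 145 d. Replicate 3 at 80 d stood apart from its group at 7.55, and without it the difference was -0.32 with an adjusted p of 0.048. In hippocampus, where the group at 100 d ran from 7.04 to 8.58, the difference was -0.30 ± 0.36 (SE, adjusted p = 0.73). With the processed signal the falls were larger, at -1.52 in cortex, -1.11 in brainstem and -1.29 in hypothalamus.

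The fall of ACACA lay in the earlier part of the period sampled. In cortex all arrays at 120 d, at 7.15, 7.28, 7.14 and 7.22, stood below all arrays at 100 d, at 7.89, 7.52, 7.98 and 7.43. This step was not tested. The F test over the ages was passed in cortex (adjusted p = 0.0028) but not in hypothalamus (adjusted p = 0.058, where 16% of genes passed) or brainstem (adjusted p = 0.081). Without brainstem newborn replicate 4, the brainstem F test gave an adjusted p of 0.0066. This array has the dim area, but both its ACACA spots lay outside it. They stood 0.32 and 0.76 above the mean of the other newborn brainstem arrays. In hypothalamus the F test gave 0.045, 0.047, 0.042 and 0.037 without 80 d replicate 1, 130 d replicate 1, 130 d replicate 4 and newborn replicate 4. Taken alone, probe 1 passed it in hypothalamus and brainstem (adjusted p = 0.034 and 0.037) and probe 2 did not (0.22 in both). The test of a difference in the fetal change between regions gave an adjusted p of 0.64.

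SQLE fell in cortex. Its arrays read 14.76, 14.34, 14.68 and 14.31 at 80 d, 14.22, 14.37, 13.94 and 14.00 at 145 d, and 14.01, 13.83, 13.89 and 13.91 in newborns. The difference between 145 d and 80 d was -0.39 ± 0.12 (SE, adjusted p = 0.011), with ranges that overlapped slightly, and the F test over ages was passed (adjusted p = 0.0020). Without cortex 80 d replicate 1 the difference was -0.31 with an adjusted p of 0.0501. Both probes fell (-0.47 and -0.31, adjusted p = 0.0073 and 0.033), and with the processed signal the gene's difference was -0.65.

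In brainstem SQLE went the other way. The arrays read 14.10, 14.28, 14.05 and 14.10 at 80 d, 14.60, 14.60, 14.89 and 14.59 at 145 d, and 14.48, 14.43, 14.37 and 10.81 in newborns. The groups of 80 d and 145 d did not overlap, and the last newborn value held the probe 2 spot of the dim area. With that spot kept, the spread it added left the fetal difference of 0.53 ± 0.49 (SE) at an adjusted p of 0.43. With the spots of the area left out, the same difference of 0.53 had an SE of 0.10 and an adjusted p of 0.00017, and the F test over the ages had an adjusted p of 7.6e-05 instead of 0.34. Probe 1, which lay outside the area, rose on its own by 0.59 ± 0.13 (SE, adjusted p = 0.0011). With the processed signal and all spots the difference was 0.95 (adjusted p = 0.025). From 100 d to 120 d the brainstem arrays moved up without overlap, by 0.43 on average, a step that was not tested.

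**Figure D2:**
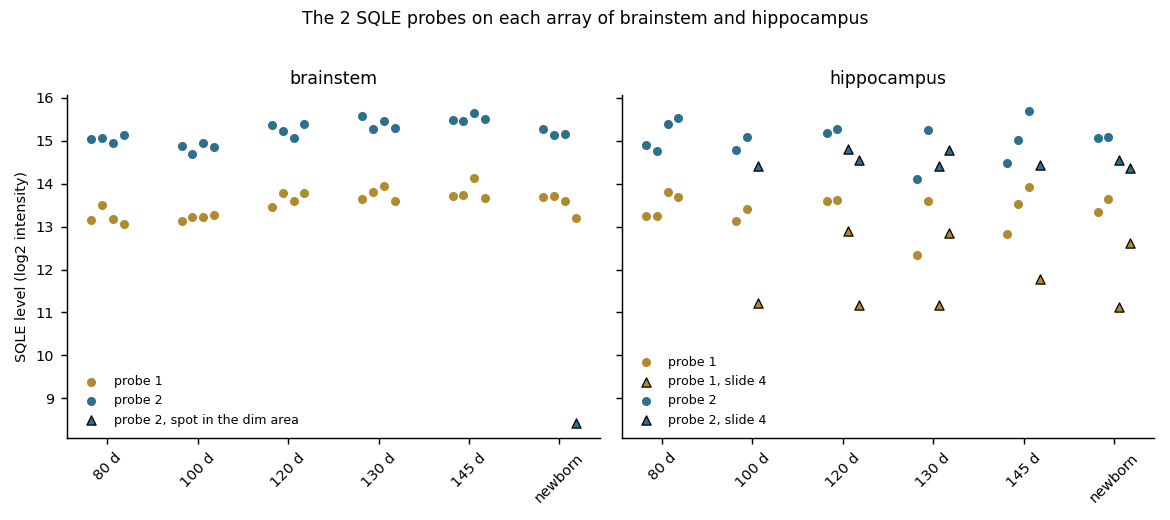
Level (log2 intensity, y axis) of the 2 SQLE probes on each array of brainstem (left) and hippocampus (right) by age (x axis). Triangles mark the probe 2 spot in the dim area at 8.44, far below the other brainstem values, and the 8 hippocampal arrays of slide 4, on which probe 1 lay at 11.12 to 12.89.

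SQLE showed no called fetal change in hippocampus (-0.36 ± 0.46, SE, adjusted p = 0.75) or hypothalamus (-0.09 ± 0.18, SE, adjusted p = 0.83). The hippocampal spread went with slide 4. There, probe 2 exceeded probe 1 by a median of 2.91, against 1.65 on the other hippocampal arrays and 1.75 in the other regions without brainstem newborn replicate 4. Without slide 4 the hippocampal difference was -0.07 (adjusted p = 0.95). The SQLE value of hypothalamus 80 d replicate 1, 14.85, rests on probe 2 and an estimate of probe 1, whose spot was marked as an outlier. The opposite signs of cortex and brainstem did not pass the test of a difference between regions (adjusted p = 0.48, and 0.077 without the dim area), although with the processed signal the adjusted p was 0.0023.

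Across birth SQLE was the only member with an unadjusted p under 0.05, in brainstem and in hypothalamus. So had 2700 of 12779 genes in brainstem and 2593 of 12929 in hypothalamus. In hypothalamus the arrays read 14.66, 14.66, 14.28 and 14.41 at 145 d and 14.68, 13.93, 13.73 and 13.43 in newborns. Replicate 1 of the newborns was at the level of 145 d and the other newborns were below it, and the difference was -0.56 ± 0.18 (SE, adjusted p = 0.093). Without newborn replicate 1 it was -0.80 with an adjusted p of 0.0060, and the F test over the ages moved from an adjusted p of 0.11 to 0.0010. Probe 2 taken alone passed the threshold, with -0.79 ± 0.21 (SE, adjusted p = 0.049), and probe 1 did not, with -0.32 ± 0.20 (SE, adjusted p = 0.38). The gene passed with the processed signal (-0.83, adjusted p = 0.033), with its brightest probe (-0.79, adjusted p = 0.049) and with slide as a fixed block (-0.56, adjusted p = 0.043).

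In brainstem the newborn value of SQLE hung on 1 spot of the dim area, that of probe 2 on replicate 4. This spot deviated by -6.75, against a median of -0.94 for the area, and the reason was not tested. With all spots the difference across birth was -1.15 ± 0.49 (SE, adjusted p = 0.18). With the area left out it was -0.35 ± 0.10 (SE, adjusted p = 0.041), and all newborn arrays, at 14.01 to 14.48, lay below all arrays of 145 d, at 14.59 to 14.89. The newborn value of 14.01, that of replicate 4, rests on probe 1 and an estimate of probe 2. Probe 1 taken alone was not called across birth, with -0.27 ± 0.13 (SE, adjusted p = 0.24). Cortex gave -0.22 (adjusted p = 0.71) and hippocampus -0.23 (adjusted p close to 1.0).

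No member passed the birth test in any region with all spots kept (0 of 5 in each by limma, with 0, 1, 0 and 1 at an unadjusted p under 0.05 in cortex, brainstem, hippocampus and hypothalamus). Over all genes the cortex had 0.248% passing, the brainstem 4.91%, the hippocampus 0.00788% and the hypothalamus 2.45%. An unadjusted p under 0.05 was found for 989 of 12904 genes in cortex and 2700 of 12779 in brainstem. In hippocampus it was found for 347 of 12688 genes and in hypothalamus for 2593 of 12929. The test of a birth change differing between regions was passed by 0.315% of genes, and the lowest adjusted p among the members was 0.66, for SQLE. ABHD5 moved by 0.40 in hippocampus and 0.37 in hypothalamus across birth, with adjusted p near 1.0 and of 0.52.

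ABHD5 rose in cortex and brainstem, and its values were higher at 145 d than at 80 d in all 4 regions. In cortex the arrays read 8.62, 8.62, 8.70 and 8.48 at 80 d and 8.97, 9.04, 8.93 and 9.07 at 145 d. The groups did not overlap, and the rise was 0.40 ± 0.09 (SE, adjusted p = 0.0012), beside 18.7% of genes higher there. In brainstem they read 8.71, 9.08, 8.90 and 8.76 at 80 d and 9.60, 9.31, 9.63 and 9.27 at 145 d. Again there was no overlap, and the rise was 0.59 ± 0.19 (SE, adjusted p = 0.019). Without 80 d replicate 1, 145 d replicate 1 or 145 d replicate 3 the adjusted p was 0.056, 0.053 and 0.060.

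In hippocampus ABHD5 read 8.41, 8.67, 9.19 and 8.88 at 80 d and 9.06, 9.50, 9.72 and 9.67 at 145 d. Replicate 3 of 80 d lay above the lowest array of 145 d, and the difference of 0.70 ± 0.20 (SE) had an adjusted p of 0.051. It was called without 80 d replicate 3, 100 d replicate 3, 120 d replicate 4, 130 d replicate 2 or 145 d replicate 1, with adjusted p from 0.026 to 0.048. Hypothalamus gave 0.42 ± 0.30 (SE, adjusted p = 0.41), where 5.68% of genes were higher and 1 array at 130 d read 8.04. The ages differed by the F test in cortex (adjusted p = 0.00051), brainstem (0.00079) and hippocampus (0.016), and not in hypothalamus (0.17).

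ABHD5 was the only member called over the ages in hippocampus, where 3.07% of genes passed the F test. That call was lost without slide 4 (adjusted p = 0.13), without 80 d replicate 1 (0.056), without 80 d replicate 2 (0.057), with the processed signal (0.073), with trend and robust settings (0.081) and with slide as a fixed block (0.056). The largest step of ABHD5 between neighbouring ages came from 100 d to 120 d in brainstem. In each of the 4 regions every array at 120 d stood above every array at 100 d, with mean steps of 0.31, 0.98, 0.64 and 0.58 in cortex, brainstem, hippocampus and hypothalamus. This step was seen in the values and was not tested, and the share of all genes with such a separation was not counted.

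**Figure D3:**
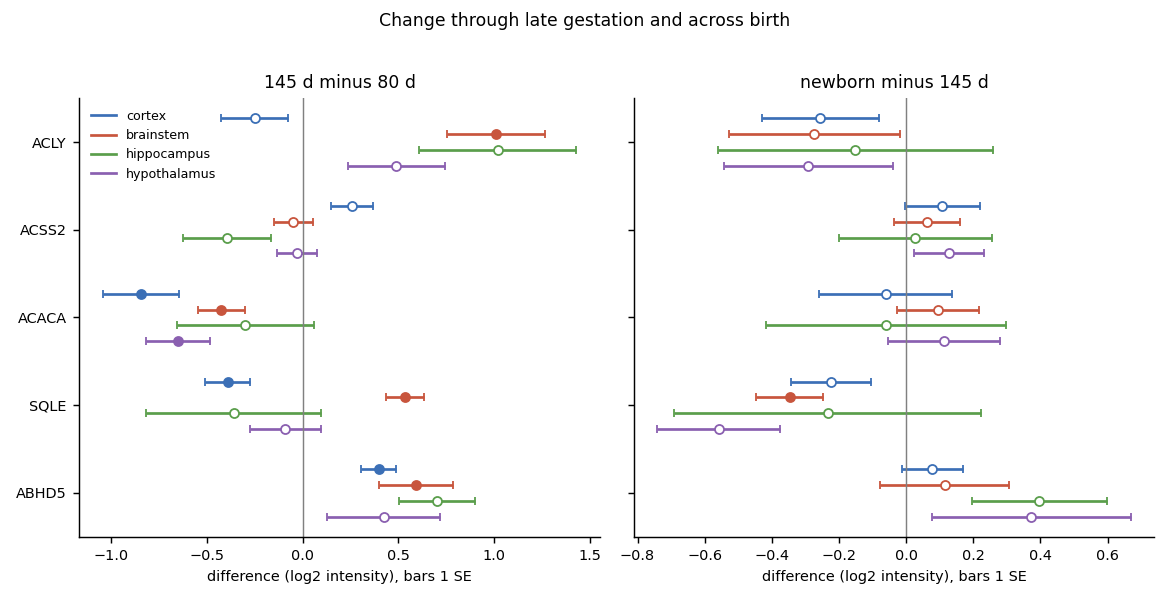
Differences in log2 intensity (x axis) of the 5 genes (y axis) from 80 d to 145 d (left) and from 145 d to newborn (right), with 1 SE, in 4 regions. Filled points have an adjusted p under 0.05, and SQLE in brainstem is drawn with the dim area left out. ACACA lies below 0 in each region on the left, ABHD5 lies above 0 in each, and ACLY and SQLE take both signs.

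By the fetal comparison with all spots, 1 member was higher and 2 lower in cortex, 2 higher and 1 lower in brainstem, 0 of 5 either way in hippocampus, where 2.43% of genes were lower, and 1 lower in hypothalamus. By the F test 4, 2, 1 and 0 members were called in cortex, brainstem, hippocampus and hypothalamus. With 5 members these counts are read only beside the shares of all genes given above. The median fetal change of all genes was -0.02, 0.01, 0.00 and -0.02 in the same order.

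Averaged over the ages, ACLY and ABHD5 differed between regions (adjusted p = 0.0022 and 0.010), as did 49% of all genes. Each slide held arrays of 1 region, so slide and region could be separated only by treating slide as a random block. By the study's methods the 4 regions were taken from 4 fetuses or lambs of each age, so arrays of different regions share animals. The labels do not tie them to one another, and the tests between regions, of levels and of changes, did not model the animal. ACLY was highest in brainstem, at 12.11, above hypothalamus at 11.62 (fitted difference 0.53, adjusted p = 0.046), cortex at 11.53 (cortex minus brainstem -0.58, adjusted p = 0.019) and hippocampus at 11.30 (0.83, adjusted p = 0.00056). The call against hypothalamus was lost in 19 of 95 fits that each left out 1 array, all of them brainstem or hypothalamus arrays, with adjusted p from 0.0501 to 0.106 (the last without hypothalamus 120 d replicate 4, 0.45). The lower 3 did not pass a test against each other. ABHD5 was lowest in cortex, at 8.91, against 9.38 in brainstem, 9.38 in hippocampus and 9.38 in hypothalamus. Those 3 differed by 0.01 at most, and cortex minus each of them was -0.46, -0.46 and -0.45 (adjusted p = 0.011, 0.012 and 0.0145, and for hypothalamus 0.088 with the processed signal).

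These orders rest on a common scale for all arrays. When each region was normalized on its own, the median of all genes was 0.88 higher in cortex than in brainstem, 0.81 higher than in hippocampus and 0.72 higher than in hypothalamus, and the sign of the ABHD5 differences turned. Relative to that shift, ABHD5 in cortex minus brainstem, hippocampus and hypothalamus was -0.41, -0.09 and -0.20. ACLY in brainstem then stood 1.09 above hippocampus and 0.67 above hypothalamus, and cortex lay at -0.60 from brainstem.

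The other members had no called order of regions with all arrays. ACACA ran from 7.47 in cortex through 7.35 in hippocampus and 7.23 in hypothalamus to 6.97 in brainstem (adjusted p = 0.056), and of its pairs only cortex against brainstem passed (0.50, adjusted p = 0.017, and 0.90 with an adjusted p of 0.054 with the processed signal). It was called in 15 of 95 fits without 1 array, with adjusted p down to 0.029, and without slide 4 (0.0016). ACSS2 ran from 7.25 in cortex through 7.18 in hippocampus and 7.09 in hypothalamus to 7.06 in brainstem (adjusted p = 0.10, and 0.00014 without slide 4). SQLE ran from 14.39 in hypothalamus through 14.23 in brainstem and 14.18 in cortex to 13.85 in hippocampus (adjusted p = 0.37). Without the dim area its adjusted p was 0.027, and without brainstem newborn replicate 4 as a whole 0.021.

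Few further genes of these pathways had a named probe here. As 13352 of the 15008 probes kept only an accession, other listed genes may have been measured under accessions. Each listed gene with a named probe was tested where the filter kept it. Of 34 listed genes of fatty acid synthesis, 5 had a named probe. FASN, fatty acid synthase, which uses the malonyl-CoA made by ACACA, was not called in any region, with changes from -0.03 to 0.13. It had 1 probe, with means at 145 d from 6.93 in hypothalamus to 7.76 in cortex. This is near the dim end, where the offset shrinks differences. SCD5 and SCD, desaturases that place a double bond in fatty acids, were higher at 145 d in brainstem by 1.30 ± 0.14 and 1.17 ± 0.22 (SE, adjusted p = 4.5e-07 and 0.00031). SCD5 was also higher in cortex by 0.73 and in hypothalamus by 1.43, and ME1, which supplies NADPH, was higher in cortex by 0.32. Of these 5 genes 2 rose in cortex, where the median change of the list was 0.08 and 18.7% of all genes were higher, and 2 in brainstem, with a median of 0.31 beside 17% of all genes. The hippocampus had 0 called (median 0.13) and the hypothalamus 1 that rose (median 0.29), beside 2.12% and 5.68% of all genes higher. HACD1, a dehydratase of fatty acid elongation, fell across birth in brainstem (-0.75, adjusted p = 0.016) and in hypothalamus (-1.03, adjusted p = 0.0073).

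Sterol synthesis had 1 named gene of 21, TM7SF2, a sterol reductase that acts after SQLE. It fell in cortex (-0.60 ± 0.19, SE, adjusted p = 0.013) and rose in brainstem (0.92 ± 0.17, SE, adjusted p = 0.00021), where SQLE had the same signs. In hippocampus it gave 0.41 and in hypothalamus -0.40, neither called. Beside ABHD5, 7 of 20 genes of neutral lipid storage and lipolysis were named. PLIN2, a coat protein of lipid droplets, was lower at 145 d in all 4 regions, by differences of -1.64, -0.86, -1.60 and -0.51 in cortex, brainstem, hippocampus and hypothalamus. In cortex 4 of the 6 tested genes of this list rose (DGAT1, LIPA, LPL and PLIN5, by 0.29 to 0.72) and PLIN2 fell, with a list median of 0.37, beside 18.7% of all genes higher and 22.7% lower. In brainstem, hippocampus and hypothalamus 1, 1 and 1 rose and 2, 1 and 1 fell, with medians of 0.02, 0.27 and 0.15. Of all genes 17%, 2.12% and 5.68% were higher and 20.5%, 2.43% and 8.51% lower in these regions.

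Of the 18 listed regulators, PPARG, PRKAA2 and PPARGC1A had named probes, the last under 2 names. PPARGC1A fell in brainstem (-0.45, adjusted p = 0.021) under that name, and under the name pgc1 rose in cortex (0.31, adjusted p = 0.026). The other name gave 0.01 in cortex (adjusted p = 0.98) and -0.28 in brainstem (adjusted p = 0.086), so neither call was shared by both names. For uptake and transport 5 of 19 genes were named, of which NPC2, which moves cholesterol out of lysosomes, rose in brainstem by 0.84 (adjusted p = 0.0022) and the fatty acid carrier FABP5 fell there (-0.34, adjusted p = 0.034). For fatty acid oxidation 2 of 14 were named, and CPT1B, which admits fatty acids to mitochondria and is blocked by malonyl-CoA, fell in cortex (-0.39), brainstem (-0.44) and hypothalamus (-0.71).

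**Figure D4:**
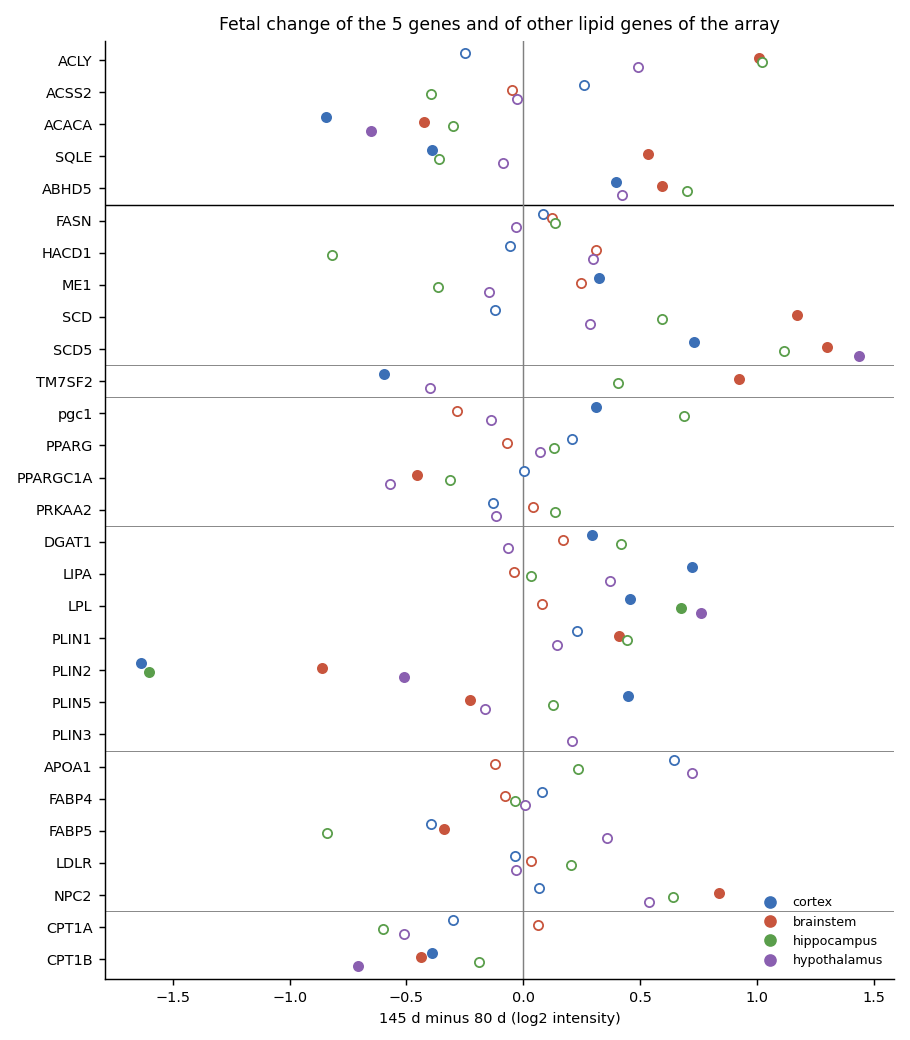
Difference between 145 d and 80 d (log2 intensity, x axis) of the 5 genes, above the black line, and of the named genes of the lipid lists, in 4 regions. Filled points have an adjusted p under 0.05, grey lines part the lists (fatty acid synthesis, sterol synthesis, regulators, storage and lipolysis, uptake, oxidation), and SQLE in brainstem has the dim area left out. SCD5 lies far to the right and PLIN2 far to the left, and TM7SF2 parts into cortex at -0.60 and brainstem at 0.92.

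Over the 24 means of region and age, the profiles nearest to each member among 888 named genes were found by Pearson's r, given as a description of means that share arrays and normalization. The ACLY profile was nearest to SCD5 (r = 0.81), CX32 (0.77), a gap junction protein of myelinating cells, and CP (0.75), ceruloplasmin. ABHD5 was nearest to PDXK (0.81), CRYAB (0.80) and C5aR (0.80). SQLE was nearest to HACD1 (0.77), MRPL32 (0.69) and RIT1 (0.69), and with the dim area left out to TM7SF2 (0.78), HACD1 (0.76) and RIT1 (0.76). ACACA was nearest to MGLUR7 (0.85), IL1A (0.85) and CSNK1E (0.83). Among the genes near ACSS2 were LDHA (0.76) and CHRM3 (0.72), and with the dim area left out LDHA (0.72) and MB (0.72), while CHRM3 was at 0.67.

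Markers of glia moved over the same ages as the members. MBP, an oligodendrocyte marker for which the paper reports array values, had no named probe here. Of 15 such markers 3 had one, CRYAB, CX32 and TF. Their mean level in brainstem lay between 10.45 and 10.57 at 80 d and between 14.14 and 14.44 at 145 d. At the same ages it lay between 7.93 and 8.22 and between 11.41 and 11.91 for cortex, between 8.65 and 8.89 and between 13.09 and 13.62 for hippocampus, and between 8.92 and 9.43 and between 13.00 and 13.50 for hypothalamus. All 3 rose in all 4 regions, including cortex, where ACLY did not. The mean of the 5 astrocyte markers was 10.15 at 80 d and 12.12 at 145 d in cortex, where GFAP, AQP4, EAAT1, EAAT2 and MT3 all rose. In brainstem it was 11.23 and 12.29, and there EAAT1, a glutamate transporter, gave 0.00 (adjusted p = 0.99) while the other 4 rose. Markers of other cells also differed. The mean of 3 adipocyte markers was 7.12 at 80 d and 7.26 at 145 d in brainstem and 7.08 and 7.19 in cortex. Of these 3, PLIN1, a lipid droplet coat protein of fat cells, rose in brainstem (0.41, adjusted p = 0.0064), where ACLY and ABHD5 rose, while FABP4 gave -0.08 and LEP 0.09. The microglial marker ITGAM rose in cortex (0.35, adjusted p = 0.0080) and hypothalamus (0.71, adjusted p = 0.00076) and gave -0.02 in brainstem and -0.05 in hippocampus, and CD14 was not called in any of them. In brainstem the pituitary hormone gene PRL fell (-3.51, adjusted p = 0.00083), and of the red cell genes AHSP fell (-1.13, adjusted p = 0.0078) and HBB rose (1.37, adjusted p = 0.029). The pituitary genes POMC (-0.89, adjusted p = 0.036) and LHB (-0.45, adjusted p = 0.046) fell in hypothalamus. The mean of the choroid plexus markers TTR and AQP1 ran from 6.60 to 12.58 among the brainstem arrays of 80 d, and neither gene was called in any region. What part these markers have in the levels of ACLY, SQLE, ACACA and ABHD5 was not tested.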

How the data were processed

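Total RNA of each sample was labeled with Cy3 and hybridized by the authors to one-colour Agilent sheep arrays of 60-base probes, 8 arrays to a slide. The deposited scanner files hold the mean intensity, local background intensity and a processed intensity of each spot, and their headers name Feature Extraction 10.1.1.1, another version than the methods give. The authors' deposited series table holds normalized log2 values, made with limma per the labels (version not given).

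Here limma 3.58.1 in R 4.3.3 was used: normexp background correction (offset 50), quantile normalization over the 95 arrays, log2, control and outlier spots left out. Within a region a probe was kept if 4 or more arrays read it over 1.1 times their 95th percentile of the 77 negative control probes. Probes of a gene were averaged, and a missing spot was filled from the gene's other probe by their median distance in the region. Names came from the file's symbols, gene identifiers and RefSeq accessions, which gave 1656 of 15008 probes a symbol. The members, gene lists, markers and tests were chosen with earlier results of these data known. Named genes were the 5 members, the 3 genes most like each, and the members of the lists. Of the genes this rule names, 1 is not reported here. Each region was fitted by lmFit and eBayes over its 6 ages with Benjamini-Hochberg adjustment over all genes tested (threshold 0.05). Regions were compared over all arrays with slide as a random block (consensus correlation 0.23). The authors' BETR method was replaced by limma's F test. Fits without 1 array over all regions used the 12132 genes measured on every array. The dim area was located by running medians of the deviation from the other newborn brainstem arrays. The fits were tested on simulated data with known changes. Of 200 genes raised by 1 at 145 d, the fetal comparison called 92% in cortex and 83.5% in brainstem. It called 36% in hippocampus and 73.5% in hypothalamus. Between 5.16% and 7.69% of the calls were unchanged genes. The number of arrays limits the precision. Figures were drawn with matplotlib 3.10.9. The alternatives stand in the closing section. No genome was used, so probes have transcript positions but no chromosome coordinates.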

Additional observations from a re-analysis of the deposited data

Results flagged for a closer look

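Of 115 groups of 4 arrays tested, 6 held an array that stood far from the other 3 for its gene, and chance alone flags about 1 group in 20. For ACACA these were brainstem 80 d replicate 3 at 7.55 and hypothalamus newborn replicate 4 at 7.50, both above their groups. For ACLY it was hippocampus 145 d replicate 4 at 10.23, below its group and on slide 4. For ACSS2 it was brainstem 145 d replicate 2 at 7.41, above its group. For SQLE these were brainstem 145 d replicate 3 at 14.89, above its group, and brainstem newborn replicate 4 at 10.81, where the probe 2 spot lay in the dim area and the value without it was 14.01. The fetal change of ACLY differed between regions by the interaction test, with an adjusted p of 0.027.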

How the results depend on the processing

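Counts of called members that moved by over 1.5 times come first. The share of all genes called was counted for the main fits only. The counts under other settings, here and below, therefore have no such share beside them and do not set the members apart from other genes. In hippocampus the fetal count went from 0 to 1 without slide 4 (chosen after seeing the data), with no filter, with normalization within regions and with slide or replicate as a block, and the F test count from 1 to 0 with trend and robust settings, without slide 4 and with the processed signal. In hypothalamus the F test count went from 0 to 2 with the brightest probe of each gene, and the birth count from 0 to 1 with the brightest probe, the processed signal and slide as a block. In brainstem the birth count went from 0 to 1 without the dim area. By smaller steps, the fetal count in cortex went from 3 to 4 (ACSS2) with the brightest probe, the processed signal and slide or replicate as a block. In brainstem the fetal count went from 3 to 4 (SQLE) without the dim area and with the processed signal, and the F test count from 2 to 3 with the brightest probe and the processed signal (ACACA) and without the dim area (SQLE). The count with a fetal change differing between regions went from 1 to 2 with the authors' table and with normalization within regions, to 3 with the processed signal and to 0 with no slide term. The count differing in level between regions went from 2 to 4 without slide 4 and to 5 with no slide term or within-region normalization. The last reversed cortex minus brainstem for ABHD5, ACLY and SQLE (0.47, 0.28 and 0.66), cortex minus hippocampus for ABHD5 (0.73) and cortex minus hypothalamus for ABHD5, ACLY and SQLE (0.54, 0.82 and 0.62), beside the shift of all genes given above. Beyond these shifts the causes were not tested. The falls of ACACA in cortex, brainstem and hypothalamus, the rises of ACLY in brainstem and of ABHD5 in cortex and brainstem, and the fall of SQLE in cortex kept their sign and call under each of the 9 or 10 alternatives run for them other than leaving out 1 array. The dimmer probe alone was not among these alternatives, and ACACA probe 2 alone was not called in hypothalamus (adjusted p = 0.051).

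Without 1 array at a time, the F test counts ranged from 3 to 4 in cortex, 2 to 4 in brainstem, 0 to 1 in hippocampus and 0 to 1 in hypothalamus. The fetal counts ranged from 2 to 4, 2 to 4, 0 to 1 and 1 to 1, the birth counts from 0 to 0, 0 to 0, 0 to 0 and 0 to 1, in the same order. The count differing in level ranged from 2 to 4, in fetal change from 0 to 2 and in birth change from 0 to 0.

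The labels give the groups shared replicate numbers. Arrays of the same number and age in 2 regions deviated with r from -0.37 to 0.59 (median 0.06). Of these 141 pairs 56 were over 0.1, and the own number was the best match in 56. Within a region, arrays of the same number in 2 ages had r from -0.64 to 0.88 (median 0.09). Of these 235 pairs 116 were over 0.1. No chance level was worked out for these counts, so they do not decide whether the numbers mark pairs. As the labels do not state a pairing, the main fits did not use the numbers. With a replicate block, ABHD5 was called between 80 d and 145 d in hippocampus (0.70, adjusted p = 0.030), ACSS2 in cortex (0.26, 0.033) and SQLE across birth in hypothalamus (-0.56, 0.043). The block moved the fetal count in cortex from 3 to 4 and in hippocampus from 0 to 1, the F test and birth counts in hypothalamus from 0 to 1 and the count with a differing fetal change from 1 to 2.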
